A study of Mus musculus with 6 samples.

Results

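Interferon-stimulated genes are the transcripts that cells switch on when interferon, a secreted antiviral signal, binds its receptor. RNA-seq gave their transcript levels in Min6, a line derived from a mouse insulinoma that serves as a stand-in for pancreatic beta cells. The set holds 39 genes, named one by one as interferon-stimulated or interferon-signalling genes, out of 53379 gene identifiers counted. Each of the 39 matched 1 identifier. They comprise sensors of viral RNA, transcription factors of the pathway, and effectors that act on viral RNA, proteins or membranes.

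The comparison asks how these genes differ in beta-like cells after a CRISPR guide RNA (gRNA) against JunD. The cells carried the lentiCRISPR v2 vector, which delivers Cas9 and a gRNA, with a gRNA against JunD (3 libraries) or against the Rosa26 locus as negative control (3 libraries). JunD is one of the AP-1 transcription factors. Every library came from cells at passage 28, grown in high glucose medium, exposed to glucolipotoxic conditions for 30 hours and collected 8 days after transduction. Both groups thus shared the lentiviral vector and the metabolic stress, and no unstressed or vector-free cells were analysed here. Separate transductions for the replicates are not stated in the labels. The p-values therefore measure only how far these samples spread, and that spread may be technical. In bulk RNA, fewer cells with a transcript and less of it per cell cannot be told apart.

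As background, infected cells recognise foreign RNA through cytosolic sensors such as MDA5, which lead to phosphorylation of IRF3 and to interferon release. Type I interferon binds the IFNAR receptor and activates the factor ISGF3, whose subunits include STAT2 and IRF9. ISGF3 binds the interferon-stimulated response element (ISRE) in promoters of antiviral genes. Beta cells respond to interferon, and an interferon signature in islets is a known feature of type 1 diabetes.

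Some of the members' promoter sequences held the letters of the ISRE. The core letters of the ISRE, which are GAAA, any 2 bases and GAAA on either strand, were searched in the window from 250 bases before to 50 bases after the RefSeq start of each gene (build GRCm38.p6). Of the 30 members with an entry in the promoter table, 14 held these letters, which is 46.7% (Wilson 95% interval 30.2% to 63.9%). Among all 27025 genes in the table the share was 3.99%. With CT required directly after the second GAAA (AG directly before the match on the other strand), a stricter form, 8 of 30 members matched (26.7%, interval 14.2% to 44.4%), against 0.303% of all genes. A match is a description of letters and was not tested for binding. The 9 members without an entry were Oas2, Usp18, Mx1, Mx2, Zbp1, Dhx58, Parp9, Parp14 and Ifi27.

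Promoter stretches of 80 bases are printed for the 8 tested members that carry a match before the start and had the smallest unadjusted p over 6 libraries. They are read 5′ to 3′ on the strand of the gene, and the capitals mark every match, with overlapping matches joined. Rsad2 comes from chr12:26456528-26456607 (minus strand), Isg15 from chr4:156200846-156200925 (minus), Bst2 from chr8:71537555-71537634 (minus) and Stat2 from chr10:128270248-128270327 (plus). Oas1a comes from chr5:120907526-120907605 (minus), Ifit3 from chr19:34583355-34583434 (plus), Ifit1 from chr19:34640759-34640838 (plus) and Gbp3 from chr3:142559964-142560043 (plus).
Rsad2: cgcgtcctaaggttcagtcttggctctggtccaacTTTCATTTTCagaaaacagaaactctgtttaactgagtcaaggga
Isg15: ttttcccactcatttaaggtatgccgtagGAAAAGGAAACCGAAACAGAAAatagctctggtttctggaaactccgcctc
Bst2: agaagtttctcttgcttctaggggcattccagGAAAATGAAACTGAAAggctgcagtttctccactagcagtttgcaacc
Stat2: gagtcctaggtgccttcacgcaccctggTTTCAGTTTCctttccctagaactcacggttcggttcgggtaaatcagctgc
Oas1a: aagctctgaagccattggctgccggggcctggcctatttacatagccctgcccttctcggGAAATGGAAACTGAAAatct
Ifit3: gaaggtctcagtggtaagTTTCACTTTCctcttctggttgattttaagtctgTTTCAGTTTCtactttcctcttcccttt
Ifit1: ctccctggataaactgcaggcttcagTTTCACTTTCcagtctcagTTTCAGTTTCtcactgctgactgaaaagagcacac
Gbp3: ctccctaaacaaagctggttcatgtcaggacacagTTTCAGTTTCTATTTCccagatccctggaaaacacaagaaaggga

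Isg15 held 3 overlapping matches in a single run, Bst2, Oas1a and Gbp3 held 2 overlapping ones, and Ifit3 and Ifit1 held 2 separate ones. Rsad2 and Stat2 held 1 each. Rsad2's match lies from 120 to 111 bases before its start. A second motif was searched after the values had been seen, because JunD belongs to the AP-1 family. Its letters are TGANTCA, which read the same on both strands. They occurred in 7 of the 30 member promoters (23.3%, Wilson 95% interval 11.8% to 40.9%), against 8.97% of all genes, and the difference in share was not tested. The 7 were Rsad2, Gbp2, Oas3, Trim30a, Xaf1, Ifi35 and Ifit3. The letter N allows any base, and the middle base was A in Trim30a, T in Ifit3 and C or G in the others. The match in Trim30a lies after the start. In Rsad2 the letters lie from 87 to 81 bases before the start, visible as tgagtca near the end of the printed stretch.

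**Figure D1:**
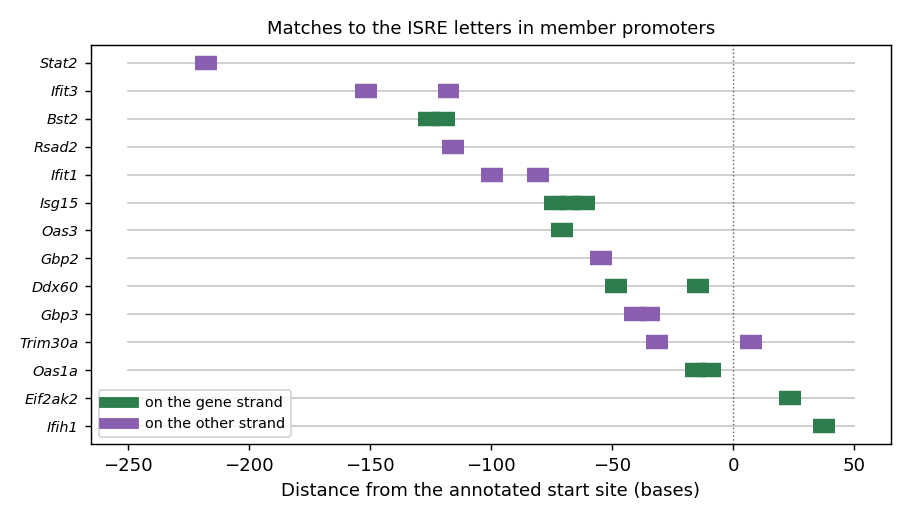
Positions of matches to the ISRE letters in the promoters of the 14 members that hold one; the horizontal axis is the distance in bases from the annotated start, the boxes are matches and their colour gives the strand. In 12 of the 14 a match lies before the start, and in Eif2ak2 and Ifih1 it lies after it.

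Depth was similar in all libraries, with 41071566 to 49628813 counts assigned to genes in JunD gRNA libraries and 43408459 to 50024931 in Rosa26 gRNA libraries. Jund itself had 22.6, 25.1 and 26.9 CPM (counts scaled to the library total) with the JunD gRNA, against 39.3, 34.5 and 30.4 CPM with the Rosa26 gRNA, so its transcript was lower in every JunD gRNA library. Its log2 fold change was -0.47 ± 0.11 (SE) over 6 libraries, which did not pass (edgeR, adjusted p = 0.417). Over 6 libraries it passed with DESeq2 (adjusted p = 0.0410) and with edgeR when no count filter was used (0.0455). Without Rosa26 gRNA replicate 1 it was -0.38 ± 0.08 and passed (edgeR, adjusted p = 0.0077). With Rosa26 gRNA replicate 2 or 3 left out as well it was -0.28 and -0.46, from fits with 1 Rosa26 gRNA library. All 13 beta-cell markers were present, summing to between 91673 and 98159 CPM in JunD gRNA and to between 54026 and 92790 CPM in Rosa26 gRNA libraries. Markers of leukocytes, which respond strongly to interferon, summed over 9 genes to 2.80 to 3.81 CPM in JunD gRNA and 3.74 to 4.58 CPM in Rosa26 gRNA libraries, with Adgre1 and Cd3e at 0 and 8 of the 9 under 0.5 CPM in every library. Rosa26 gRNA replicate 1 stood apart from the other 5 libraries, so log2 fold changes are given over 6 libraries and over 5, without it.

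No member passed the test over 6 libraries. Over 5, Rsad2 fell in JunD gRNA libraries and no member passed in the other direction, although Ifit2 did with no count filter (adjusted p = 0.0333) and with a correction for GC content and length (0.0185). Rsad2 encodes viperin, an antiviral enzyme that makes a chain-terminating nucleotide. The test was edgeR's quasi-likelihood test with Benjamini-Hochberg adjustment over all genes at 0.05. Enough counts for the test were present in 32 of the 39 members over 6 libraries and in 33 over 5. Over 6 libraries edgeR called 0 of the 32 lower and 0 higher, as it did for all 17767 genes tested (0% lower and 0% higher). At an unadjusted p under 0.05 there were 2119 genes, 2 of them members (Rsad2 and Xaf1), while DESeq2 called Rsad2 alone among the members and limma-voom none. Over 5 libraries 1 of the 33 members was called lower, beside 1.4% of 18296 genes, and 0 were called higher, beside 1.45%. At an unadjusted p under 0.05 there were then 2908 genes and 4 members (Rsad2, Ifit2, Xaf1 and Cmpk2). The 257 lower and 266 higher genes of the whole table became 210 lower and 366 higher with a correction for GC content and length.

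The set as a whole was centred near 0 over 6 libraries and lay slightly below 0 over 5. The median log2 fold change (JunD gRNA over Rosa26 gRNA) was -0.02 over 6 libraries, with 17 of 32 members negative, beside -0.0064 and 51.1% negative for all genes tested. Over 5 libraries it was -0.10, with 24 of 33 members negative, beside -0.0030 and 50.8% negative for all genes. The 24 include Oas3, which met the count filter over 5 only through the Rosa26 gRNA libraries, where it was high. The size of the differences was close to that of other genes, at a median absolute value of 0.14 on the log2 scale for members and 0.16 for all genes over 6 libraries, and 0.12 and 0.11 over 5. It was under 0.2 in 20 of the 32 members over 6 libraries and in 22 of the 33 over 5. A member that missed the threshold is not thereby shown to be equal in both groups.

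The members summed to similar totals in all libraries. They came to 569, 573 and 555 CPM in JunD gRNA libraries, against 568, 607 and 579 CPM in Rosa26 gRNA libraries, and these ranges overlap. Every JunD gRNA library lay below every Rosa26 gRNA library in 6 of the 32 members (18.75%), beside 12.8% of all genes tested. The reverse order occurred in 0 of the 32, beside 11.6% of all genes. Over 5 libraries the shares were 8 of 33 (24.2%) lower, beside 17.3%, and 1 of 33 (3.03%) higher, beside 15.7%. Oas3, which met the count filter only through the Rosa26 gRNA libraries, is among the 8.

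**Figure D2:**
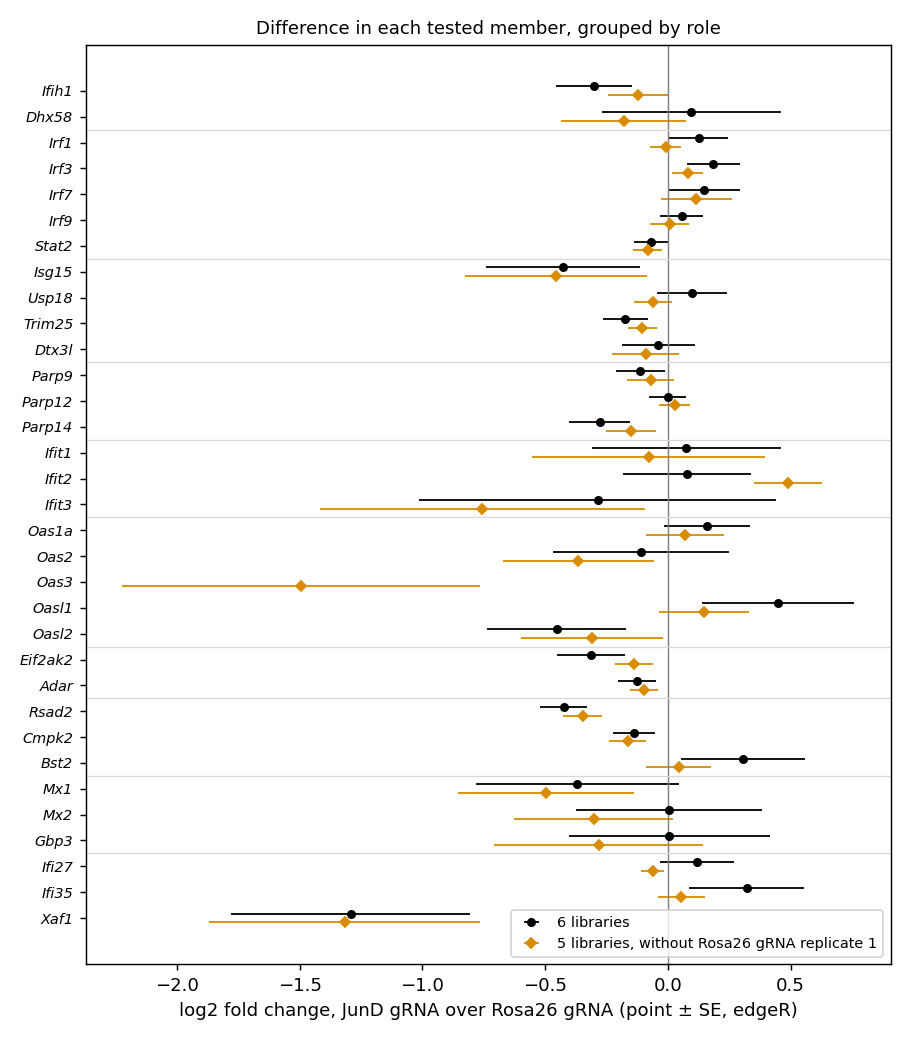
Log2 fold change (JunD gRNA over Rosa26 gRNA, horizontal axis) with its SE from edgeR for each member tested, grouped by role from sensors at the top to other interferon-induced genes at the bottom. Black points are from 6 libraries and orange points from 5, without Rosa26 gRNA replicate 1; most points lie within 0.2 of 0, and Oas3 was tested in the fit on 5 alone.

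Levels spanned a wide range within the set. Of the 39 members, 13 averaged under 1 CPM, 11 from 1 to under 10 CPM and 15 at 10 CPM or more. Per length, the highest was Ifi27, which encodes a small mitochondrial protein, at 62.1 CPM per kilobase of exon (mean of 6 libraries). That is the 95.8th percentile of the 17743 tested genes with an exon length, whose median was 4.19. Trim25, an E3 ubiquitin ligase that acts on the RNA sensor RIG-I, followed at 13.9 and Irf3 at 12.1 on the same scale. Rsad2 stood at 4.27, close to the median of tested genes.

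Several of the genes most used as interferon reporters were low. Isg15, the ubiquitin-like modifier, was at 1.14 CPM per kilobase, Mx1 at 0.344 and Ifit1 at 0.181. At the bottom were Sp100, Zbp1, Ddx60 and Gbp2, all under 0.014 on this scale. Ifi44 and Trim30a had 0 counts in all 6 libraries, which allows up to 0.0600 to 0.0730 CPM per library (3 counts, counting error only). In the order by level, 34 of the 38 pairs of neighbours overlapped in their ranges over libraries. The 4 that did not were Ifi27 above Trim25, Irf3 above Parp12, Rsad2 above Irf9, and Irf9 above Parp9.

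**Figure D3:**
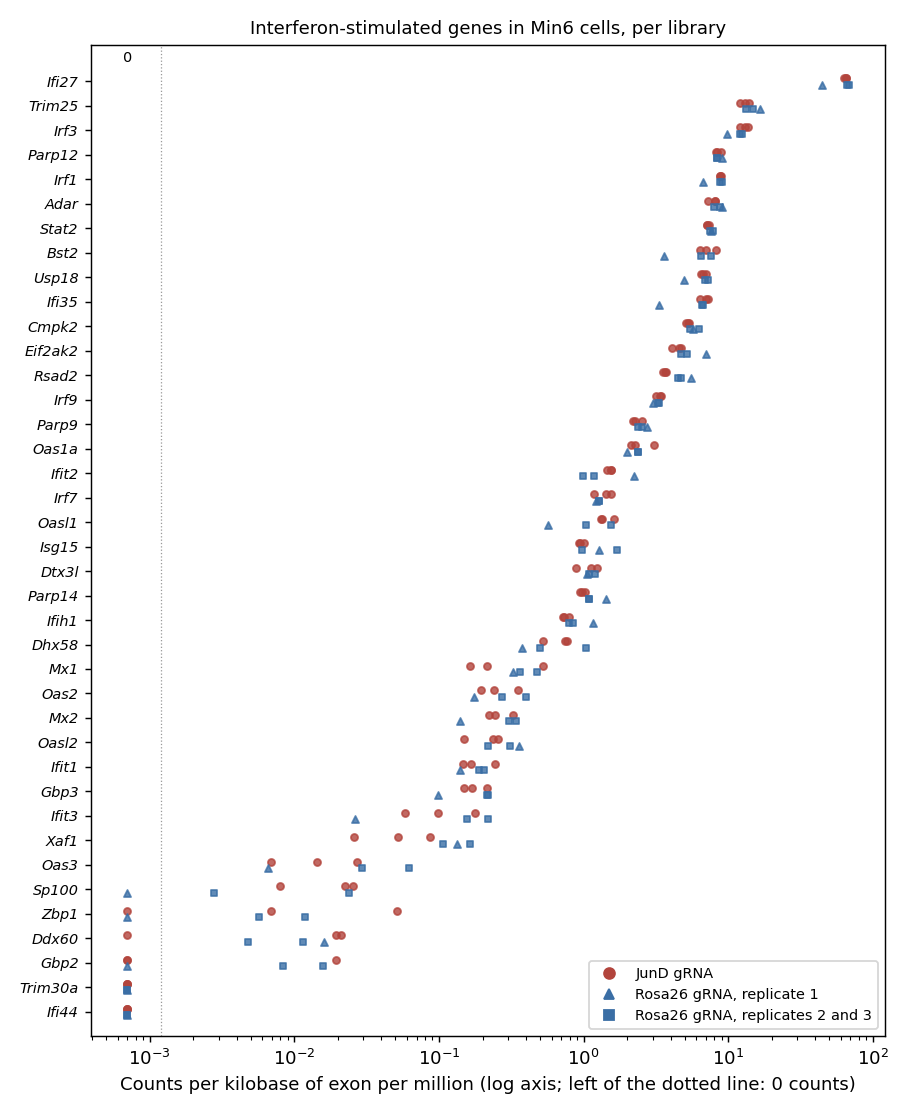
Level of all 39 members in each of the 6 libraries, in CPM per kilobase of exon on a log axis, with libraries at 0 counts drawn left of the dotted line. Ifi27 lies highest at 62.1 on average, Ifi44 and Trim30a have 0 counts in every library, and the triangle of Rosa26 gRNA replicate 1 is often at an edge of its row.

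Among the 4 sensors, 2 were tested and neither passed. Ifih1 encodes MDA5, which detects long double-stranded RNA. It had 5.96, 6.43 and 5.90 CPM in JunD gRNA libraries, against 9.54, 6.46 and 6.86 CPM in Rosa26 gRNA libraries. Every JunD gRNA library lay below, though JunD gRNA replicate 2 and Rosa26 gRNA replicate 2 were nearly level. The log2 fold change was -0.30 ± 0.16 (SE) over 6 libraries and -0.12 ± 0.12 over 5 (edgeR, adjusted p = 0.433 and 0.699). Dhx58, which encodes the regulator LGP2, averaged 2.22 ± 0.446 CPM with the JunD gRNA and 2.09 ± 1.17 CPM with the Rosa26 gRNA (SD, n = 3 each), and its log2 fold change was 0.10 ± 0.36 (SE) over 6 libraries and -0.18 ± 0.25 over 5. Ddx60, a helicase gene, had 7, 0 and 9 counts in JunD gRNA libraries, against 6, 5 and 2 in Rosa26 gRNA libraries. Zbp1, which encodes a sensor of Z-form nucleic acid, had 0, 1 and 9 counts in JunD gRNA libraries, against 0, 1 and 2 in Rosa26 gRNA libraries, too few for a test.

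All 5 transcription factors were tested and 0 passed in either fit, with Irf7 at 1.32 and Irf9 at 3.27 CPM per kilobase below the median of tested genes. Irf1, an activator that is itself induced by interferon gamma, had 34.8, 34.7 and 35.6 CPM in JunD gRNA libraries, against 26.5, 35.8 and 34.9 CPM in Rosa26 gRNA libraries. Irf3, the factor activated by the RNA sensors, had 44.8, 41.3 and 46.8 CPM with the JunD gRNA, against 33.9, 41.5 and 42.6 CPM in Rosa26 gRNA libraries. In both genes the groups overlap and Rosa26 gRNA replicate 1 is the lowest library. The log2 fold change of Irf1 was 0.13 ± 0.12 (SE) over 6 libraries and -0.01 ± 0.06 over 5, and that of Irf3 was 0.19 ± 0.11 and 0.08 ± 0.06 (edgeR, adjusted p of 0.454 or more).

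Irf7, which amplifies interferon production, had 4.43, 5.36 and 5.88 CPM in JunD gRNA libraries, against 4.61, 4.84 and 4.85 CPM in Rosa26 gRNA libraries. Irf9, the DNA-binding subunit of ISGF3, had 18.4, 18.1 and 17.1 CPM with the JunD gRNA, against 16.4, 17.7 and 17.9 CPM in Rosa26 gRNA libraries. Both overlap between groups. Irf7 had a log2 fold change of 0.15 ± 0.14 (SE) over 6 libraries and 0.12 ± 0.15 over 5, and Irf9 of 0.06 ± 0.09 and 0.0074 ± 0.08. Stat2, its partner in ISGF3, had 42.2, 43.5 and 42.1 CPM with the JunD gRNA, against 44.9, 46.5 and 44.0 CPM with the Rosa26 gRNA. All 3 JunD gRNA libraries lay below, by a small margin, at a log2 fold change of -0.07 ± 0.07 (SE) over 6 libraries and -0.08 ± 0.06 over 5 (edgeR, adjusted p = 0.65 and 0.539).

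The ISG15 and ubiquitin group held 5 genes, of which 4 were tested and 0 passed. Isg15 had 0.718, 0.706 and 0.766 CPM in JunD gRNA libraries, against 0.968, 1.28 and 0.732 CPM in Rosa26 gRNA libraries, with the groups overlapping at the low end. Its log2 fold change was -0.43 ± 0.31 (SE) over 6 libraries and -0.46 ± 0.37 over 5. Usp18, whose protein removes ISG15 and blocks signalling at IFNAR, averaged 18.8 ± 0.862 CPM with the JunD gRNA and 17.7 ± 3.39 CPM with the Rosa26 gRNA (SD, n = 3 each), at 0.10 ± 0.14 (log2 fold change, SE) over 6 libraries and -0.06 ± 0.08 over 5. Trim25 had 74.8, 80.4 and 68.9 CPM with the JunD gRNA, against 94.8, 84.8 and 76.1 CPM in Rosa26 gRNA libraries. Its groups overlap, since JunD gRNA replicate 2 lies above Rosa26 gRNA replicate 3, and its log2 fold change was -0.17 ± 0.09 (SE) over 6 libraries and -0.10 ± 0.06 over 5 (edgeR, adjusted p = 0.434 and 0.408). Dtx3l, a ubiquitin ligase gene, averaged 6.19 ± 1.04 CPM with the JunD gRNA and 6.41 ± 0.436 CPM with the Rosa26 gRNA (SD, n = 3 each), at -0.04 ± 0.15 (log2 fold change, SE) over 6 libraries and -0.09 ± 0.14 over 5.

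The 3 PARP genes encode ADP-ribosyltransferases or their relatives, and 0 of 3 passed. Parp14 had 9.07, 8.79 and 9.55 CPM in JunD gRNA libraries, against 13.3, 10.2 and 10.2 CPM in Rosa26 gRNA libraries. The groups did not overlap, and Rosa26 gRNA replicate 1 was the highest. Its log2 fold change was -0.28 ± 0.12 (SE) over 6 libraries and -0.15 ± 0.10 over 5 (edgeR, adjusted p = 0.419 and 0.524). Parp9, the partner of Dtx3l, averaged 11.3 ± 0.889 CPM with the JunD gRNA and 12.4 ± 0.863 CPM with the Rosa26 gRNA (SD, n = 3 each). Parp12 was nearly level at 34.0 ± 1.25 CPM with the JunD gRNA and 34.4 ± 1.62 CPM with the Rosa26 gRNA (SD, n = 3 each). The log2 fold change of Parp9 was -0.11 ± 0.10 (SE) over 6 libraries and -0.07 ± 0.10 over 5, and that of Parp12 was -0.0011 ± 0.08 and 0.03 ± 0.06.

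The IFIT genes encode proteins that bind viral RNA and block its translation, and the value of Ifit2 moved with single Rosa26 gRNA libraries. Ifit2 had 5.69, 6.04 and 6.07 CPM in JunD gRNA libraries, against 8.71, 4.60 and 3.87 CPM in Rosa26 gRNA libraries. All 3 JunD gRNA libraries lay above Rosa26 gRNA replicates 2 and 3 and below Rosa26 gRNA replicate 1. This gave a log2 fold change of 0.08 ± 0.26 (SE) over 6 libraries (edgeR, adjusted p = 0.90) and 0.49 ± 0.14 over 5 (adjusted p = 0.0540), the single member higher without overlap over 5. Leaving out Rosa26 gRNA replicate 2 or replicate 3 instead gave -0.05 and -0.13, so the sign turned. Over 5 libraries it passed with no count filter (adjusted p = 0.0333) and with a correction for GC content and length (0.0185). The gene occupies chromosome 19, 34550694 to 34576419, plus strand (GRCm38). Ifit1, the founding member of the family, averaged 0.493 ± 0.135 CPM with the JunD gRNA and 0.471 ± 0.091 CPM with the Rosa26 gRNA (SD, n = 3 each). Ifit3, whose human counterpart stabilises IFIT1, averaged 0.194 ± 0.107 CPM with the JunD gRNA and 0.233 ± 0.170 CPM with the Rosa26 gRNA. The near-identical copy Ifit3b makes its counts uncertain. Without Rosa26 gRNA replicate 1, which had the lowest level of both, the log2 fold change of Ifit1 was -0.08 ± 0.47 (SE), against 0.08 ± 0.39 over 6 libraries, and that of Ifit3 was -0.76 ± 0.66, against -0.29 ± 0.73 over 6.

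The OAS genes encode enzymes that make 2-5A, the activator of RNase L, or catalytically inactive relatives, and none of the 5 passed in either fit. Oasl1, in mice an inhibitor of Irf7 translation, had 3.52, 4.24 and 3.43 CPM in JunD gRNA libraries, against 1.47, 4.02 and 2.72 CPM in Rosa26 gRNA libraries. Oasl2 had 1.63, 1.51 and 0.947 CPM with the JunD gRNA, against 2.28, 1.98 and 1.38 CPM in Rosa26 gRNA libraries. Both overlap between groups, and their log2 fold changes over 6 libraries were 0.45 ± 0.31 and -0.45 ± 0.28 (SE). Over 5 libraries they were 0.15 ± 0.18 and -0.31 ± 0.29.

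Oas1a, whose counts are uncertain because the mouse has several closely related Oas1 genes, averaged 4.67 ± 0.935 CPM with the JunD gRNA and 4.22 ± 0.404 CPM with the Rosa26 gRNA (SD, n = 3 each). Oas2 averaged 1.16 ± 0.354 CPM with the JunD gRNA and 1.26 ± 0.4995 CPM with the Rosa26 gRNA. Oas1a had a log2 fold change of 0.16 ± 0.17 (SE) over 6 libraries and 0.07 ± 0.16 over 5, and Oas2 of -0.11 ± 0.36 and -0.36 ± 0.31. Oas3 had 8, 2 and 5 counts in JunD gRNA libraries, against 2, 22 and 10 in Rosa26 gRNA libraries. It entered the test over 5 libraries alone, with a log2 fold change of -1.49 ± 0.73 (SE, edgeR, adjusted p = 0.319). Rosa26 gRNA replicate 1, left out there, lies level with the lowest JunD gRNA library. Over 5 libraries Oas3 met the count filter only through the Rosa26 gRNA libraries, the group where it was high. Its negative value there is therefore no support for a difference.

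Neither enzyme that acts on double-stranded RNA passed. Eif2ak2 encodes PKR, a kinase that halts translation when it binds such RNA. It had 23.4, 24.2 and 20.9 CPM in JunD gRNA libraries, against 35.9, 26.3 and 24.0 CPM in Rosa26 gRNA libraries. The groups overlap slightly and Rosa26 gRNA replicate 1 lies far above the other 5 libraries. Its log2 fold change was -0.31 ± 0.14 (SE) over 6 libraries and -0.14 ± 0.08 over 5 (edgeR, adjusted p = 0.417 and 0.412). Adar, which edits adenosine to inosine, had 65.7, 65.4 and 59.2 CPM with the JunD gRNA, against 74.0, 71.0 and 65.0 CPM with the Rosa26 gRNA. All but Rosa26 gRNA replicate 3 lay above every JunD gRNA library, and the log2 fold change was -0.12 ± 0.08 (SE) over 6 libraries and -0.10 ± 0.06 over 5.

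Rsad2 was the member with the smallest p in both fits. The gene (ENSMUSG00000020641.16, 8 exon blocks after merging all transcripts) occupies chromosome 12, 26442746 to 26456452, minus strand (GRCm38). It had 16.0, 15.9 and 15.3 CPM in JunD gRNA libraries, against 23.9, 19.5 and 20.6 CPM in Rosa26 gRNA libraries, from 669, 652 and 758 counts with the JunD gRNA against 1038, 976 and 984 with the Rosa26 gRNA. The JunD gRNA libraries lay close together and all below the Rosa26 gRNA libraries. The means were 15.7 ± 0.39 CPM with the JunD gRNA and 21.3 ± 2.30 CPM with the Rosa26 gRNA (SD, n = 3 each). Its log2 fold change was -0.42 ± 0.10 (SE) over 6 libraries, which missed the threshold (edgeR, adjusted p = 0.417). Over 5 libraries it was -0.35 ± 0.08 and passed (adjusted p = 0.0184), a level 0.786 times that with the Rosa26 gRNA. The call was lost when Rosa26 gRNA replicate 2 or 3 was left out as well (adjusted p = 0.125 and 0.436), which leaves 1 Rosa26 gRNA library. The sign stayed negative in every alternative tried, and the log2 fold change lay at -0.48 to -0.35 over 6 libraries and -0.38 to -0.30 over 5 when single libraries were left out.

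Cmpk2, a nucleotide kinase gene and the neighbour of Rsad2, had 22.2, 21.4 and 21.9 CPM in JunD gRNA libraries, against 23.8, 26.2 and 22.8 CPM in Rosa26 gRNA libraries. The groups did not overlap, at a log2 fold change of -0.14 ± 0.09 (SE) over 6 libraries and -0.16 ± 0.08 over 5 (edgeR, adjusted p = 0.477 and 0.29). Both genes lie on chromosome 12 on opposite strands, pointing away from each other, 12751 bases apart. Bst2 encodes tetherin, which holds budding virus at the membrane. It averaged 6.53 ± 0.876 CPM with the JunD gRNA and 5.31 ± 1.88 CPM with the Rosa26 gRNA (SD, n = 3 each). Its log2 fold change was 0.31 ± 0.25 (SE) over 6 libraries and 0.04 ± 0.13 over 5.

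The interferon-induced GTPases were low throughout, and 0 of the 3 tested passed. Mx1, a GTPase that blocks influenza virus, had 0.813, 1.97 and 0.625 CPM in JunD gRNA libraries, against 1.22, 1.80 and 1.38 CPM in Rosa26 gRNA libraries. The groups overlap widely, and the log2 fold change was -0.37 ± 0.41 (SE) over 6 libraries and -0.50 ± 0.36 over 5. Mx2 averaged 0.952 ± 0.194 CPM with the JunD gRNA and 0.951 ± 0.391 CPM with the Rosa26 gRNA (SD, n = 3 each). The guanylate-binding protein gene Gbp3 averaged 0.580 ± 0.114 CPM with the JunD gRNA and 0.578 ± 0.221 CPM with the Rosa26 gRNA. These equal means rest on Rosa26 gRNA replicate 1, the lowest library in both genes, without which the Rosa26 gRNA means were 1.17 ± 0.093 CPM for Mx2 and 0.705 ± 0.0079 CPM for Gbp3 (SD, n = 2). The log2 fold change of Mx2 was 0.0031 ± 0.38 (SE) over 6 libraries and -0.30 ± 0.32 over 5, and that of Gbp3 was 0.0061 ± 0.41 and -0.28 ± 0.42. Gbp2 had at most 2 counts in any library.

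Xaf1, a gene with a role in apoptosis, showed the largest log2 fold change among members tested over 6 libraries, from few counts. It had 17, 10 and 6 counts in JunD gRNA libraries (0.407, 0.243 and 0.121 CPM), against 27, 25 and 37 counts in Rosa26 gRNA libraries (0.622, 0.4998 and 0.774 CPM). All JunD gRNA libraries lay below. The log2 fold change was -1.29 ± 0.49 (SE) over 6 libraries and -1.32 ± 0.55 over 5, and neither passed (edgeR, adjusted p = 0.417 and 0.225).

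Ifi27 had 96.1, 92.0 and 95.1 CPM in JunD gRNA libraries, against 65.3, 101 and 97.1 CPM in Rosa26 gRNA libraries. Ifi35, a gene that modulates innate signalling, had 11.1, 12.5 and 12.05 CPM with the JunD gRNA, against 5.76, 11.4 and 11.6 CPM in Rosa26 gRNA libraries. In both, Rosa26 gRNA replicate 1 lies far below the other 5 libraries. The log2 fold change of Ifi27 was 0.12 ± 0.15 (SE) over 6 libraries and -0.06 ± 0.05 over 5, and that of Ifi35 was 0.32 ± 0.23 and 0.06 ± 0.10 (edgeR, adjusted p of 0.525 or more). Sp100, a nuclear-body protein gene, had 8, 7 and 3 counts in JunD gRNA libraries, against 0, 9 and 1 in Rosa26 gRNA libraries.

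**Figure D4:**
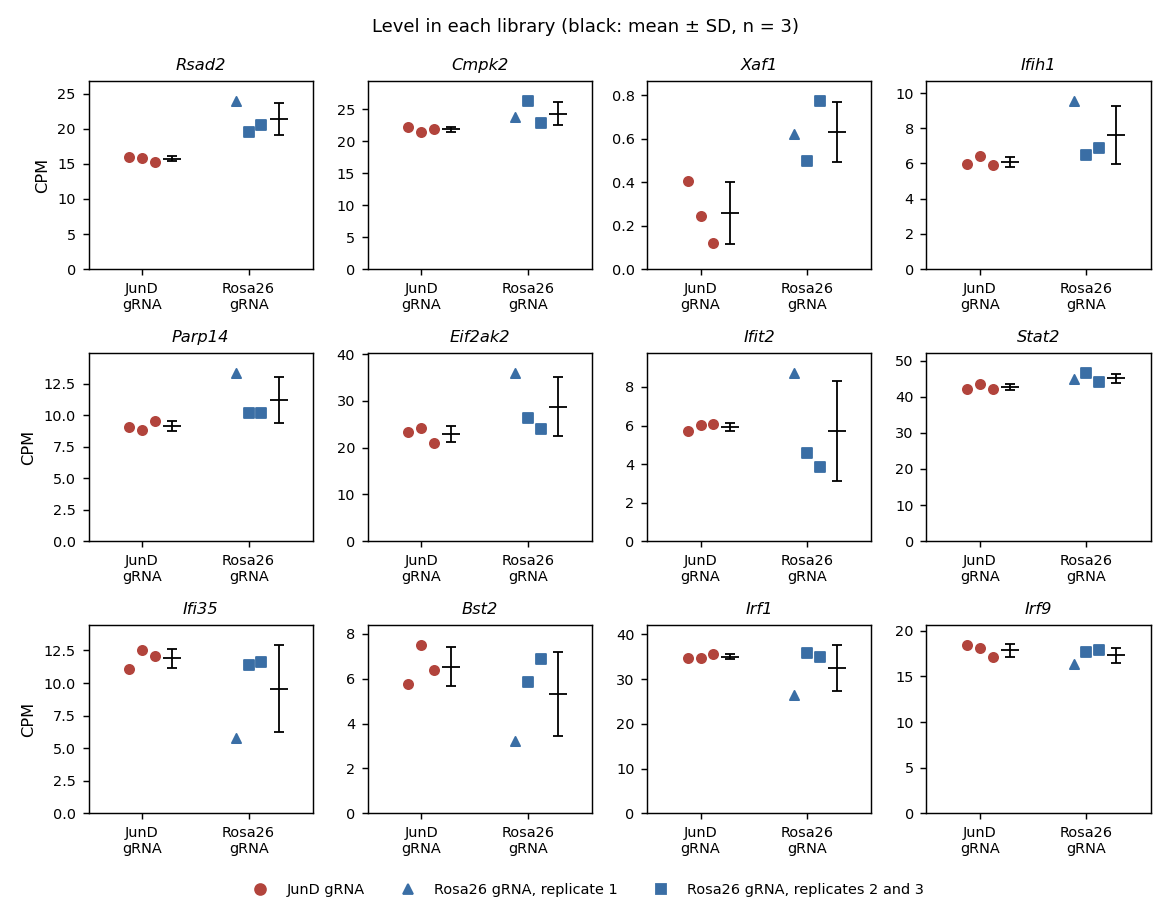
Level in CPM (vertical axis, from 0) of 12 members in each library, with JunD gRNA libraries left and Rosa26 gRNA libraries right; black bars give the mean and SD over 3 libraries per group. Rsad2, Cmpk2, Xaf1, Ifih1, Parp14 and Stat2 show no overlap between groups. The triangle of Rosa26 gRNA replicate 1 lies apart in Ifit2, Eif2ak2, Ifi35, Bst2 and Irf1, and also in Rsad2, Ifih1 and Parp14.

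The library that stood apart lay at an edge of the range in most members. Rosa26 gRNA replicate 1 was the lowest or the highest of the 6 libraries in 25 of the 32 tested members, against 4 to 12 in each of the other libraries. It was lowest in 15 and highest in 10. Without it the members' median log2 fold change was -0.10, with 24 of 33 negative, against -0.02 and 17 of 32 with it. The 15 in which it was lowest had a median GC content of 52.0% and a median exon length of 2790 bases, and the 10 in which it was highest had 46.9% and 5433.5 bases. Over the 32 members, its log2 deviation from the mean of the other 5 libraries correlated (Spearman) at -0.525 with the GC content of the longest transcript and at 0.680 with exon length. The correlation with GC content over 17683 tested genes was -0.505. These are descriptions across genes of 1 library, and genes are not independent replicates.

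**Figure D5:**
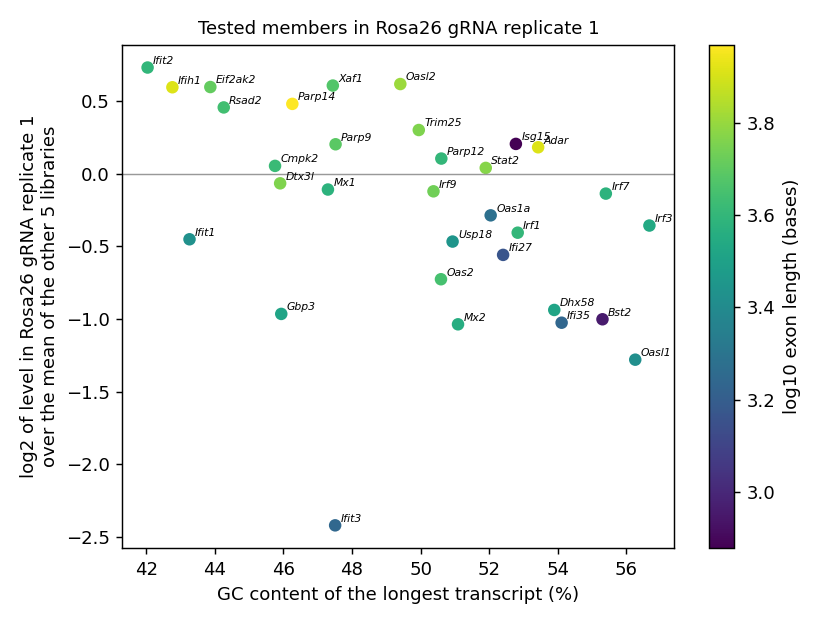
Log2 of the level in Rosa26 gRNA replicate 1 over the mean of the other 5 libraries (vertical axis) against the GC content of the longest transcript in percent (horizontal axis), for the 32 tested members, with colour for log10 exon length in bases. GC-rich genes such as Bst2, Oasl1 and Ifi35 lie below 0 and AT-rich, long genes such as Ifih1 and Eif2ak2 lie above it.

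Several members moved with that library. Without it the log2 fold change differed by over 1.5 times, among others, in Ifih1 (-0.30 over 6 libraries and -0.12 over 5), Parp14 (-0.28 and -0.15), Eif2ak2 (-0.31 and -0.14), Oasl1 (0.45 and 0.15), Ifi35 (0.32 and 0.06) and Bst2 (0.31 and 0.04). By contrast Stat2 (-0.07 and -0.08), Cmpk2 (-0.14 and -0.16), Isg15 (-0.43 and -0.46) and Xaf1 (-1.29 and -1.32) kept nearly the same value. With the correction for GC content and length, Rsad2 was at -0.30 over 6 libraries (edgeR, adjusted p = 0.227) and at -0.28 over 5 (adjusted p = 0.0400).

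Many members lie beside each other in the genome. Ifit2, Ifit3 and Ifit1 follow each other on chromosome 19, with 7111 and 52139 bases between them. Oasl2 and Oasl1 are 11005 bases apart on chromosome 5, where Oas2, Oas3 and Oas1a also lie. Dtx3l and Parp9 overlap by 682 bases on opposite strands of chromosome 16. Parp9 also overlaps Gm15564, an antisense gene with 2 to 216 counts per library, over 5854 bases. Adar overlaps Chrnb2, a gene on the other strand with 3308 to 4182 counts per library, over 7252 bases. Irf7 overlaps Phrf1 by 45 bases on opposite strands, and Irf9 overlaps Rnf31 by 123 on the same strand. These overlaps are of whole gene spans, introns included, and the length of shared exon was not measured. No strand setting of the counting is given in the sources used here, so reads in shared exons on opposite strands cannot be told apart. For Irf9 and Rnf31 a strand setting would not separate such reads.

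Members with and without the ISRE letters can be set side by side. Of the 14 with a match, 8 averaged under 1 CPM, against 3 of the 16 without one. Over 6 libraries the median log2 fold change was -0.18 in the 10 tested members with a match and 0.03 in the 14 without. Over 5 it was -0.14 in 11 members with a match, 9 of them negative, and -0.00078 in 14 without, 7 of them negative. The 9 include Oas3, which met the count filter only through the Rosa26 gRNA libraries. The 8 tested members with no promoter entry had a median of -0.05 over 6 libraries, 4 of them negative. Over 5 their median was -0.16, with 8 of 8 negative, so low values were not limited to members with a match. These medians are descriptions with no test.

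The rest of the pathway gave context through 83 further genes. The 10 interferon ligand genes had almost no counts, with 9 at 0 counts in every library and Ifnl3 at 2 counts in Rosa26 gRNA replicate 3 alone. Of the 6 receptor genes 5 were tested and 0 passed, and all 11 genes of JAK-STAT signalling and its inhibitors were tested with 0 passing. Among 16 genes of nucleic acid sensing, 13 were tested and 0 passed. Of 40 further interferon-induced genes, 26 were tested over 6 libraries and 28 over 5, and the only call was Cxcl10, lower over 5. In all, groups did not overlap in 12 of 55 genes over 6 libraries, all lower in JunD gRNA libraries, and over 5 in 20 lower and 3 higher of 57. Of all genes tested, 12.8% were lower and 11.6% higher without overlap over 6 libraries, and 17.3% and 15.7% over 5.

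Type I interferon receptor transcripts were present in both groups. Ifnar1 averaged 60.1 ± 1.83 CPM with the JunD gRNA and 65.1 ± 2.84 CPM with the Rosa26 gRNA, and Ifnar2 averaged 30.1 ± 0.832 CPM with the JunD gRNA and 28.7 ± 6.07 CPM with the Rosa26 gRNA (SD, n = 3 each). The interferon gamma receptor gene Ifngr1 averaged 22.1 ± 1.80 CPM with the JunD gRNA and 25.6 ± 0.922 CPM with the Rosa26 gRNA, and Ifngr2 averaged 23.5 ± 1.01 CPM with the JunD gRNA and 24.5 ± 3.56 CPM with the Rosa26 gRNA. The log2 fold changes of Ifngr1 were -0.20 over 6 libraries and -0.21 over 5, and did not pass (edgeR, adjusted p = 0.419 and 0.146).

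Cxcl10, an interferon-induced chemokine that attracts T cells, had 6.17, 6.72 and 6.31 CPM in JunD gRNA libraries, against 7.92, 9.68 and 7.90 CPM in Rosa26 gRNA libraries, with no overlap. Its log2 fold change was -0.40 ± 0.12 (SE) over 6 libraries and -0.45 ± 0.12 over 5 (edgeR, adjusted p = 0.417 and 0.0391). The call over 5 was lost without JunD gRNA replicate 1 or 2 (adjusted p = 0.0718 and 0.0549) and without Rosa26 gRNA replicate 2 or 3 (0.485 and 0.147). Ddx58, which encodes RIG-I, averaged 5.43 ± 0.44 CPM with the JunD gRNA and 7.02 ± 1.27 CPM with the Rosa26 gRNA (SD, n = 3 each). Its log2 fold change was -0.36 over 6 libraries and -0.47 over 5 (edgeR, adjusted p = 0.417 and 0.0562). Over 5 libraries Ddx58 passed as lower with no count filter (edgeR, adjusted p = 0.0228) and with the replicate number as a block (0.0307). The ubiquitin ligase genes Herc6 and Rnf213 were at -0.60 and -0.22 over 6 libraries and at -0.38 and -0.19 over 5. Neither passed in the 2 fits, although Rnf213 did over 5 with the replicate number as a block (edgeR, adjusted p = 0.0399). The GTPase gene Gbp7 was at -0.68 over 6 libraries and -0.33 over 5, and did not pass. Signalling genes with the smallest p over 6 libraries were Ptpn2 (-0.17), Pias1 (-0.17), Jak2 (-0.20) and Socs3 (0.17), and in sensing, after Ddx58, Traf6 (-0.23), Tbk1 (-0.17) and Ticam1 (0.14), none of which passed.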

How the data were processed

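Total RNA of the 6 samples was extracted with a column kit, per the labels' protocols. The submitters' processing notes name the mm10 build, TopHat2 and featureCounts. Not given in the sources used here are their versions, the annotation, the strand setting and the handling of multi-mapping reads. The authors deposited raw read counts per gene, 1 file for each library. Groups came from the gRNA label and replicate numbers from the titles. Symbols were matched for 53274 of 53379 identifiers, and coordinates, exon lengths and GC content came from GENCODE release M21 on GRCm38. Promoters came from RefSeq.

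The members, gene lists and tests were chosen with earlier results of these data known. Counts were fitted over the whole table with edgeR 4.0.16 in R 4.3.3 (TMM, filterByExpr, quasi-likelihood test, two-sided, Benjamini-Hochberg adjustment at 0.05), with limma 3.58.1 and DESeq2 1.42.0 as alternatives. SEs of log2 fold changes are approximate, derived from the quasi-likelihood F statistic. CPM are counts over the library total, and low counts limit the precision of members near 1 CPM. Counting floors cover counting error only.

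Values per library are given for members called in either fit, the 12 with the smallest p in each fit and 5 transcription factors, and in addition for some other members chosen after their values were seen. Pathway genes are named where called, or as the 4 with the smallest p per role over 6 libraries. Alternatives were other normalizations and filters, the replicate number as a block, libraries left out in turn, and a spline correction (5 degrees of freedom) for GC content and length. Simulated data with known changes were used to check the fits. No file was left out, and results of some genes in the lists are not reported here.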

Additional observations from a re-analysis of the deposited data

How the results depend on the processing

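Over 6 libraries, DESeq2 called 1 member lower (Rsad2), with 47 genes lower and 21 higher in the whole table. With no count filter 53 genes were lower and 33 higher, and with the GC and length correction 14 and 11. Over 5 libraries Ifit2 made 1 member higher with no count filter (498 genes higher in all), with the replicate number as a block (475 higher) and with the GC and length correction (366 higher). Beyond the members, Ddx58 gained a call as lower over 5 with no count filter and with the block, and Rnf213 with the block. With the block over 6 libraries 0 genes were lower and 0 higher. The labels state no pairing of the replicate numbers. Deviations from the group means correlated at 0.06, -0.04 and 0.07 between same-numbered libraries. Between libraries of other numbers they correlated at -0.10 to 0.07. Such weak values cannot exclude a pairing. The cause of the shifts between settings was not tested. Leaving out single libraries gave 0 to 257 genes lower and 0 to 266 higher over 6 libraries, and 28 to 356 lower and 16 to 378 higher over 5, with 0 to 1 members lower and 0 higher. The members' median log2 fold change then ran from -0.10 to 0.04 over 6 libraries and from -0.12 to -0.04 over 5. Requiring CT directly after the ISRE letters gave 26.7% of member promoters. Signs turned, with none called, in Parp12 (0.00035 with limma-voom, 0.0099 with no filter), Mx2 (-0.0054 with a filter of 1 CPM, -0.018 corrected for GC and length), and with that correction over 6 libraries in Dtx3l (0.063), Ptpn2 (0.0077) and Pias1 (0.035). Over 5 libraries they turned with the block in Irf9 (-0.015) and Oas1a (-0.10), and with the correction in Ticam1 (-0.038), Pias1 (0.021), Jak2 (0.014) and Socs3 (-0.0052). Leaving out single libraries gave log2 fold changes of either sign, over 6 libraries, in Ifit1 (-0.16 to 0.22), Oas1a (-0.013 to 0.26), Mx2 (-0.30 to 0.24), Parp12 (-0.035 to 0.028), Gbp3 (-0.28 to 0.19), Ifit3 (-0.79 to 0.26), Oas2 (-0.37 to 0.23), Dtx3l (-0.14 to 0.089), Irf1 (-0.0090 to 0.21), Usp18 (-0.061 to 0.21), Dhx58 (-0.18 to 0.65), Ifi27 (-0.062 to 0.23), Ifnar2 (-0.092 to 0.18), Ifit2 (-0.13 to 0.49) and Ifngr2 (-0.17 to 0.044). Over 5 libraries they were Irf1 (-0.026 to 0.011), Irf9 (-0.010 to 0.035), Oas1a (-0.097 to 0.17), Tbk1 (-0.11 to 0.0010), Ifit1 (-0.31 to 0.067), Bst2 (-0.069 to 0.17), Ticam1 (-0.068 to 0.089), Parp12 (-0.0076 to 0.052), Dtx3l (-0.19 to 0.040), Isg15 (-0.80 to 0.0041), Dhx58 (-0.61 to 0.45) and Oasl1 (-0.10 to 0.46). In all, 490 single-gene values kept direction and side of the threshold with a library left out and 41 turned sign. A further 8 lost a call and 3 gained one. The 3 were Rsad2, Cxcl10 and Jund over 6 libraries without Rosa26 gRNA replicate 1, which is the fit on 5. Few genes were called to begin with, so keeping the side mostly meant staying uncalled. Members under 1 CPM rest on few counts, so small differences there were not detectable at this depth.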
